A study of Glycine max with 12 samples.

Results

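The 100 most abundant transcripts of soybean (Glycine max) roots are described here, across a line labelled OX and a line labelled WT, each grown with 50 µM AlCl3 (Al) or with 0 µM AlCl3 (CK). CPM, a gene's count over the total of its library scaled to a common depth, was computed for each row, and the 100 of 56877 rows with the highest mean CPM over the 12 libraries were taken. The 4 groups, OX_Al, OX_CK, WT_Al and WT_CK, held 3 libraries each, all from roots. What OX means is not spelled out in the labels, which also name no promoter, transgenic event, cultivar, plant age or length of the Al treatment. Whether replicates were different plants is not stated either. A p-value therefore reflects only how far the deposited libraries scatter, and that scatter may be technical. In bulk root RNA, fewer cells of a type and less RNA per cell cannot be told apart. The identifiers are not paired with names or functions in the deposited table, and 0 of them matched the reference gene table, so members carry their identifiers alone and the root label could not be set beside marker genes. CPM is not divided by transcript length, so the order of members is an order of reads, not of molecules.

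In a plant tissue, a small number of genes supplies a large part of all messenger RNA, usually genes for protein synthesis, primary metabolism, the cell wall and defence. Sequencing divides a fixed number of reads among all transcripts, so a rise of very abundant transcripts lowers the share left for the others. Aluminium ions in acid soil act first on the root tip, where they stop elongation, and roots answer with organic acid release, cell wall changes and stress gene expression. The series was made to look for genes of aluminium tolerance, and the comparisons here ask how the top of the transcript population shifts with Al and with the line.

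The libraries held from 15923413 to 18399566 counts. The members were deeply covered, with a median of 12286.5 counts per member and library and a lowest value of 117 counts, and all 100 passed the filter on low counts. Between libraries of a group, the median coefficient of variation of the members' CPM was 10.6% in OX_Al, 20.6% in OX_CK, 11.9% in WT_Al and 22.5% in WT_CK. Mean CPM over the 12 libraries fell off steeply with rank. It was 4412 for the member ranked 1, 1760 for rank 10 and 502.5 for rank 100. Values did not jump at the limit of the list: Glyma.13G249600, Glyma.10G048600 and Glyma.04G193400 were the last inside it at 514.4, 506.9 and 502.5 CPM. Glyma.16G077800, Glyma.11G121800 and Glyma.06G186300 stood just outside it at 499.4, 493.9 and 492.5 CPM.

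Together the 100 members took from 8.39% to 11.5% of a library, and their mean share was highest in OX with Al. They held 10.9%, 11.5% and 10.6% of the counts in the OX_Al libraries and 9.75%, 11.1% and 10.8% in the OX_CK libraries. In WT they held 9.89%, 9.30% and 9.81% with Al and 8.39%, 8.83% and 8.99% without it. Each of these shares has a 95% Wilson interval at most 0.0307 percentage points wide, which covers counting error only, since reads are not independent molecules. The group means were 10.99 ± 0.423% in OX_Al, 10.5 ± 0.700% in OX_CK, 9.67 ± 0.323% in WT_Al and 8.74 ± 0.312% in WT_CK (SD, n = 3 each). All 3 WT_CK libraries lay below the other 9 libraries. The members were chosen on these same CPM values, so the shares are a description. The order of the groups depends on how the list is chosen: the 100 rows highest in WT_CK, of which 67 are members, held 6.74% in OX_Al, 9.63% in OX_CK, 6.90% in WT_Al and 9.98% in WT_CK. The 100 rows with the highest median CPM, of which 93 are members, gave 10.8%, 10.5%, 9.67% and 8.74% in that order of groups.

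**Figure D1:**
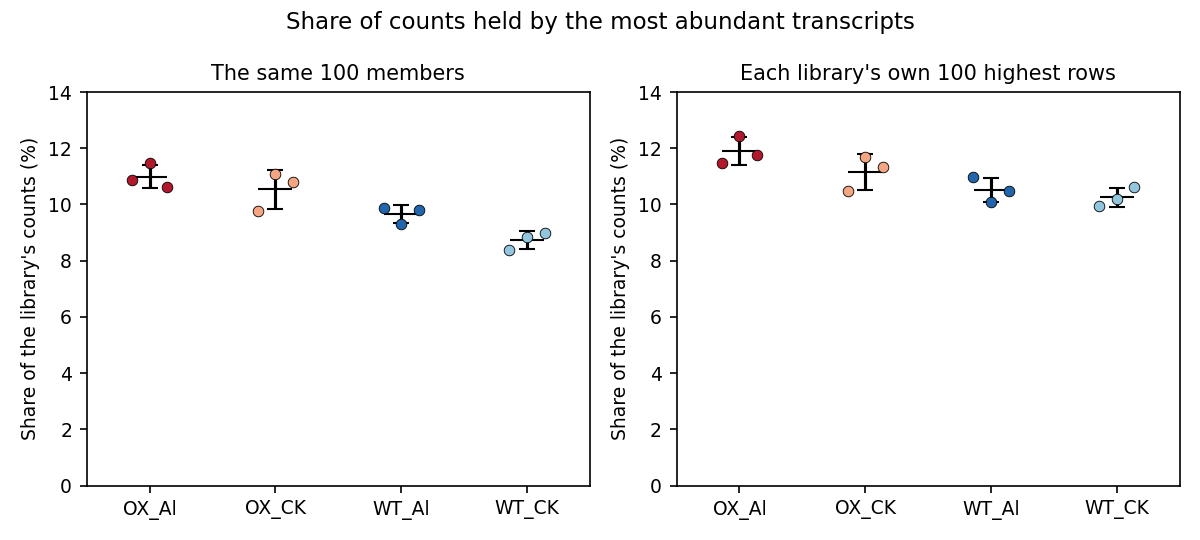
Share of each library's counts (%) held by the same 100 members (left) and by each library's own 100 highest rows (right), with points for the 3 libraries of each group and the mean and SD in black. On the left the WT_CK libraries, at 8.39% to 8.99%, are the lowest, and on the right the OX group means of 11.9% and 11.2% stand above the WT group means of 10.5% and 10.3%.

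By a measure that does not use the member list, reads were more concentrated in the OX line. The 100 highest rows of each library itself held 11.5%, 12.4% and 11.8% of the counts in OX_Al and 10.5%, 11.7% and 11.3% in OX_CK. In WT they held 10.97%, 10.1% and 10.5% with Al and 9.95%, 10.2% and 10.6% without it. The OX libraries exceeded the WT libraries by 1.14 percentage points on average within treatments. An exact two-sided permutation test that dealt the line labels within each treatment gave p = 0.01 over 400 arrangements, with the OX mean above the WT mean in both treatments. The ranges overlapped in CK, where the lowest OX library, at 10.5%, was below the highest WT library, at 10.6%. Leaving out Glyma.15G264300, the most abundant row, reduced the difference to 0.773 percentage points (exact permutation p = 0.015), an alternative chosen after seeing the data. Al libraries exceeded CK libraries by 0.496 percentage points within lines, which did not pass the exact permutation test (p = 0.11). That difference was 0.133 percentage points without Glyma.15G264300 (exact permutation p = 0.61), and for the 10 highest rows it was -0.283 percentage points (exact permutation p = 0.05). Adjusted over the family of 2 comparisons by Benjamini-Hochberg, the permutation p was 0.02 for OX against WT and 0.11 for Al against CK.

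**Figure D2:**
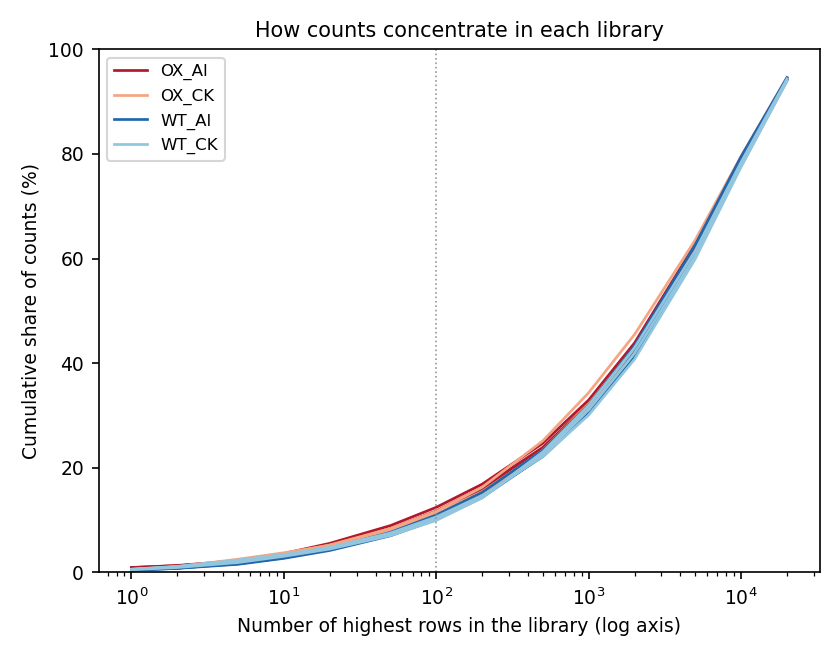
Cumulative share of counts (%) against the number of highest rows counted in each library, on a log axis, with 1 line per library coloured by group and a dotted line at 100 rows. At 1000 rows the libraries range from 30.1% in WT_CK replicate 3 to 34.4% in OX_CK replicate 2, so the lines lie close together.

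The lists of highest rows shared fewer rows between treatments than between lines. The 100 highest rows by group mean shared 54 rows between OX_Al and OX_CK and 46 between WT_Al and WT_CK. They shared 75 rows between OX_CK and WT_CK and 74 between OX_Al and WT_Al. No test was made of these counts. Of the 100 members, 33 were among the 100 highest rows of all 4 groups, and 3 were in the list of 1 group only. The highest and the lowest group mean of a member differed by a median of 2.02-fold. They were within 1.5-fold for 24 members and more than 10-fold apart for 12.

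Glyma.15G264300 had the highest mean CPM of all rows, yet it ranked 1278 in WT_CK. It had 7873, 9200 and 9496 CPM in OX_Al and 2709, 5423 and 5051 CPM in OX_CK. The WT libraries had 4886, 4270 and 3677 CPM with Al and 63.5, 103.1 and 187.7 CPM without it. WT_CK is thus far below the 3 other groups. In CPM OX_Al lies above them all, although OX against WT in Al was not called for this row (adjusted p = 0.153). This row alone made up 0.787% to 0.950% of the OX_Al libraries.

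Glyma.17G186600, ranked 2, was near the top of every group. It had 3709, 3052 and 3307 CPM in OX_Al, 5174, 5386 and 4647 in OX_CK, 3487, 3557 and 3516 in WT_Al, and 5286, 4656 and 3658 in WT_CK. The Al libraries were lower in CPM than the CK libraries without overlap in both lines. CPM lacks the scaling factors (TMM) of the test. With them the groups overlap in WT, where the factors were 0.913 in WT_Al replicate 1 and 1.09 in WT_CK replicate 3. No comparison was called for this row (adjusted p of 0.134 or more). Glyma.07G007000, ranked 4, was likewise called in no comparison. It averaged 3255 ± 919 CPM in OX_Al, 3537 ± 1422 in OX_CK, 2805 ± 1138 in WT_Al and 2426 ± 989 in WT_CK (SD, n = 3 each), and its groups overlapped.

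Of the other members among the first 10, Glyma.12G217300 and Glyma.12G217400 carry neighbouring identifier numbers on chromosome 12 and ranked 3 and 5. Glyma.12G217300 averaged 2337 ± 790 CPM in OX_Al, 4830 ± 922 in OX_CK, 1897 ± 1102 in WT_Al and 3710 ± 1104 in WT_CK. Its lower level with Al was not called (adjusted p = 0.104 in OX and 0.132 in WT). In CPM the Al library was the lower in all 3 same-numbered pairs of each line, but in OX the numbers were not taken to pair libraries. With the replicate block the adjusted p was 0.0784 in OX and 0.0637 in WT. In contrast, Glyma.12G217400 was called lower, as given below with the falling members. Glyma.13G347700, ranked 6, and Glyma.05G089000, ranked 10, were called in no comparison. Glyma.20G141600, ranked 7, was the most even of these, at 2686 ± 46.7 CPM in OX_Al, 2167 ± 254 in OX_CK, 2313 ± 54.8 in WT_Al and 1965 ± 227 in WT_CK. Its log2 fold change with Al was 0.47 ± 0.19 (SE) in OX and 0.42 ± 0.19 in WT and passed the test in neither (adjusted p = 0.0732 in OX and 0.107 in WT). With the replicate block these were 0.0438 in OX, where the numbers were not taken to pair libraries, and 0.0675 in WT.

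**Figure D3:**
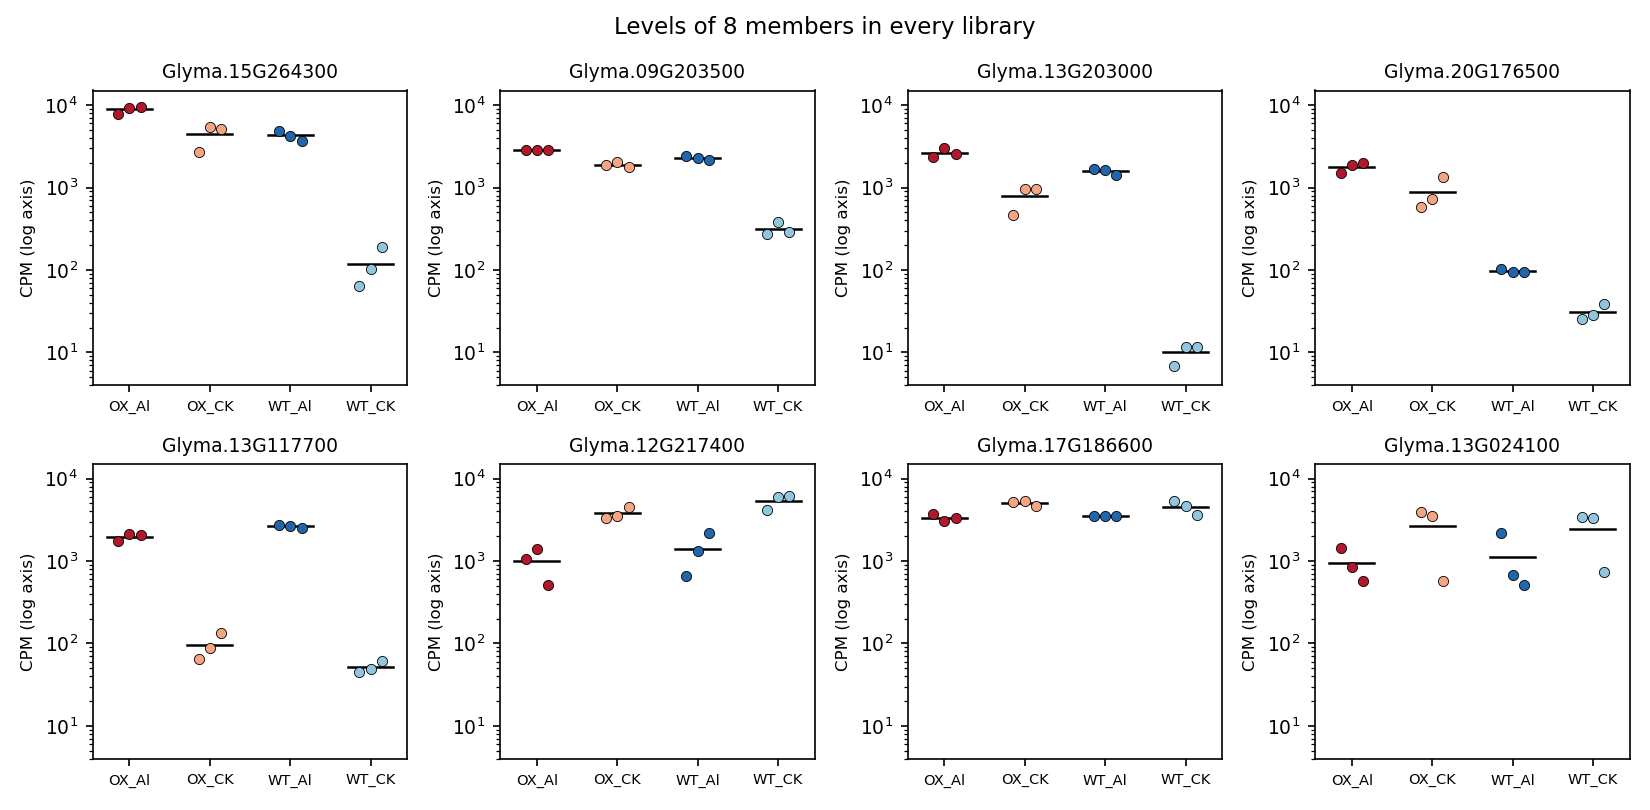
CPM on a log axis of 8 members in every library, with points for the 3 libraries of each group and a line at the group mean. Glyma.15G264300, Glyma.09G203500 and Glyma.13G203000 are low in WT_CK alone, Glyma.20G176500 is higher in both OX groups, and Glyma.13G117700 is high in both Al groups.

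With Al, far more of the most abundant transcripts were called higher than lower in WT roots. Of the 100 members, 35 rose and 7 fell, where 21.5% of the 37170 genes tested rose and 15.9% fell. The rises had a median log2 fold change of 1.90 and the falls of -1.09. Over all 100 members the median was 0.15, against -0.04 over all genes tested, and the median size was 0.72 against 0.48. The next 100 rows by mean CPM held 29 that rose and 13 that fell. Rows that are high in any group enter the list more readily, so large changes are favoured by the choice of members. The 7 falls became 13 with the replicate number as a block and 14 without WT_Al replicate 3, and 11 when libraries were scaled by their totals alone. That scaling moved the median of all genes tested from -0.04 to -0.22 on the log2 scale, and the member median from 0.15 to -0.03.

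Among the rises in WT, Glyma.13G203000 was the largest. It had 1660, 1640 and 1417 CPM in WT_Al, against 6.93, 11.8 and 11.7 CPM in WT_CK. By group mean it ranked 14 in WT_Al and 19478 in WT_CK. The log2 fold change was 7.46 ± 0.40 (SE), with an adjusted p of 1.11e-07. Glyma.13G117700 had 2751, 2674 and 2483 CPM in WT_Al and 45.3, 49.5 and 61.3 CPM in WT_CK, and it rose by 5.85 ± 0.32 on the log2 scale (adjusted p = 1.3e-07). Neither gene's groups came near each other. The largest fall was that of Glyma.10G214500, with 162.0, 315.0 and 297.7 CPM in WT_Al and 2569, 2406 and 1193 CPM in WT_CK (log2 fold change -2.82 ± 0.44, adjusted p = 0.00035). Glyma.12G217400, the most abundant row of WT_CK by group mean, had 666.9, 1311 and 2168 CPM in WT_Al and 4124, 5986 and 6103 CPM in WT_CK (log2 fold change -1.81 ± 0.42, adjusted p = 0.00552). Both falling members had values without overlap between WT_Al and WT_CK, since falls were named only among members without overlap.

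In CPM, gains exceeded losses in WT by 0.928 percentage points of the library. The 49 members with a higher mean in WT_Al than in WT_CK gained 3.49 percentage points of the library between them, and the 51 others lost 2.56 points. The largest single gain was 0.416 points for Glyma.15G264300 and the largest single loss 0.402 points for Glyma.12G217400. The members were chosen on these CPM values, which lack the scaling factors of the test, so the balance is a description. Its sign depends on the list. The 100 rows highest in WT_CK, a list that favours that group, held 6.90% in WT_Al and 9.98% in WT_CK.

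In OX roots with Al, 29 of the 100 members rose and 18 fell, where 21.2% of the genes tested rose and 15.2% fell. The share of members that fell is thus near that of all genes, and the counts of the 2 lines were not tested against each other. The median log2 fold change was 1.59 for the rises and -0.71 for the falls, and the next 100 rows held 27 that rose and 23 that fell. Large changes are favoured by the choice of members in this line too. The count of falls rests on small changes. It was 11, 4 and 4 without OX_Al replicate 1, 2 or 3, 10 and 5 without OX_CK replicate 1 or 2, and 11 without WT_CK replicate 2. With the threshold lowered to 0.01 it was 4. Scaling by library totals gave 29 rises and 26 falls and moved the median of all genes tested from -0.02 to -0.18.

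Glyma.13G117700 rose most in OX, with 1727, 2112 and 2048 CPM in OX_Al and 64.5, 88.3 and 135.2 CPM in OX_CK (log2 fold change 4.52 ± 0.30 SE, adjusted p = 7.51e-07). Glyma.02G190900 had 1008, 1300 and 1350 CPM in OX_Al and 57.5, 95.4 and 90.9 CPM in OX_CK (log2 fold change 4.07 ± 0.39, adjusted p = 1.21e-05). Both also rose in WT, where Glyma.02G190900 averaged 1240 ± 244 CPM in WT_Al and 24.9 ± 12.7 in WT_CK (SD, n = 3 each). Glyma.10G214500 again fell most, to 499.3, 284.0 and 187.3 CPM in OX_Al, against 2060, 1773 and 1073 CPM in OX_CK (log2 fold change -2.17 ± 0.43, adjusted p = 0.00204). Glyma.12G217400 had 1048, 1415 and 518.9 CPM in OX_Al and 3341, 3467 and 4503 CPM in OX_CK (log2 fold change -1.75 ± 0.42, adjusted p = 0.00718). The 2 falling members lay lower in every Al library of OX than in any CK library of OX, which the naming rule required.

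Every one of the 29 members that rose in OX also rose in WT, which is 29 of the 35 that rose there. 5 members fell in both lines, which is 5 of 7 in WT and 5 of 18 in OX, and no member moved in opposite directions by call. Over all genes tested, 75.5% of the rises in OX were also rises in WT, which is 74.4% of those in WT. Of the falls in OX 60.2% were also falls in WT, which is 57.7% of those in WT, and 60 genes moved in opposite directions. The Al responses of the lines share no library, and the members' counts were not tested against those of all genes. The 29 members held 4.69%, 5.45% and 5.33% of the counts in OX_Al and 1.58%, 2.48% and 2.29% in OX_CK. In WT they held 4.24%, 3.80% and 3.49% with Al and 0.616%, 0.672% and 0.803% without it. These sums describe rows chosen by their calls and were not tested. The 45 members called in neither line held 4.37 ± 0.335% in OX_Al, 5.85 ± 0.119% in OX_CK, 4.29 ± 0.344% in WT_Al and 5.501 ± 0.22% in WT_CK (SD, n = 3 each). Their lower share with Al is on the CPM scale, which lacks the TMM factors of the test. In the test, which uses them, the median log2 fold change of these 45 members was -0.24 in OX and -0.06 in WT. How much of the lower share goes with the scaling was not tested. These factors ran from 0.913 to 1.00 in the Al libraries and from 1.00 to 1.09 in the CK libraries.

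**Figure D4:**
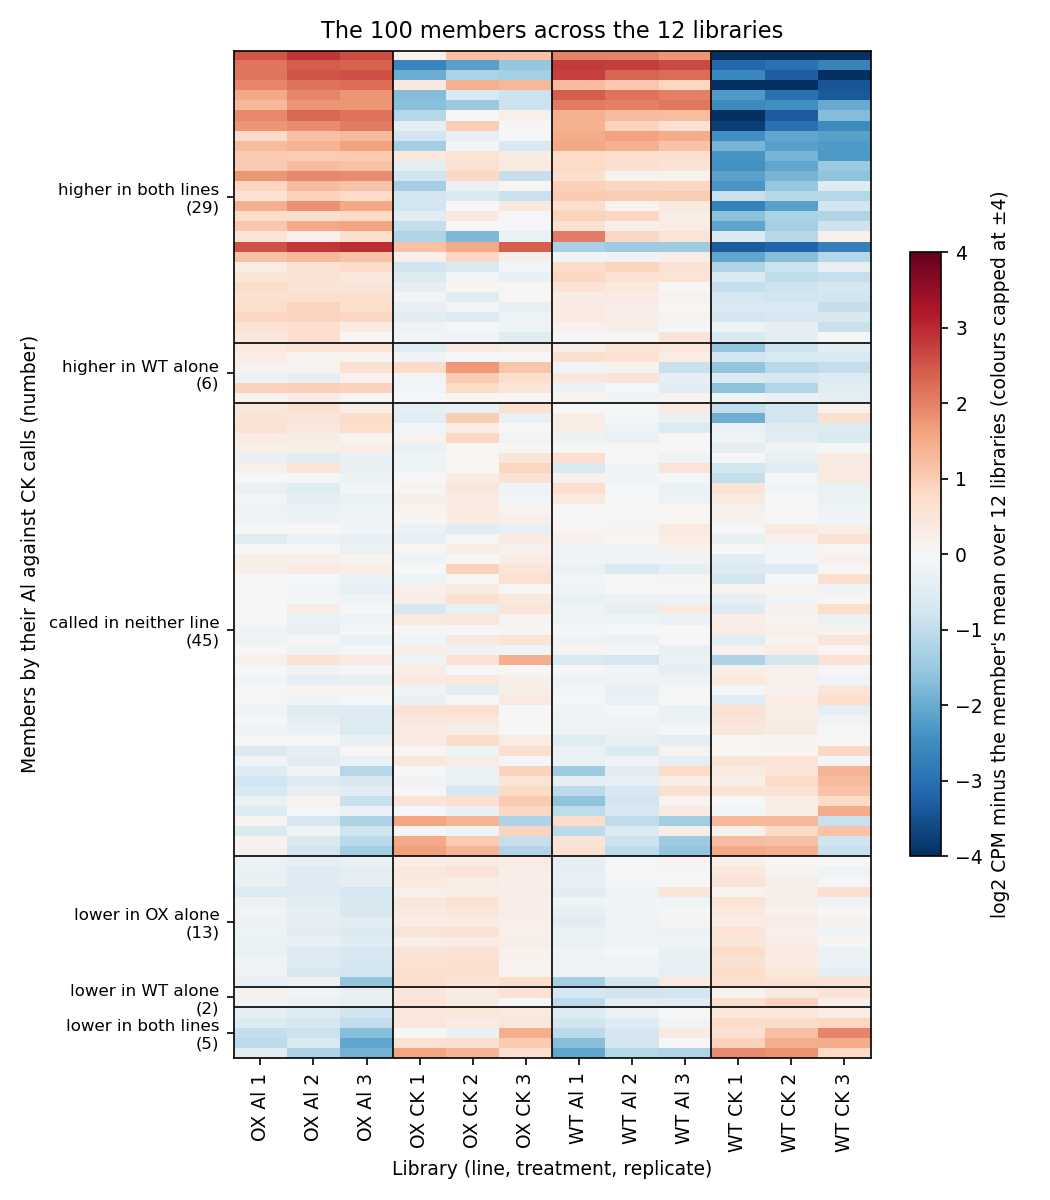
Log2 CPM of each of the 100 members minus its mean over the 12 libraries, as colour capped at 4 in either direction, with members in rows grouped by their Al against CK calls and libraries in columns. The 29 members raised in both lines are bluest in WT_CK and paler in OX_CK, and the 45 members called in neither line are paler.

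The Al response was smaller in OX than in WT for 5 members and larger for 0, by the test of the difference itself. Of the genes tested, 0.748% were called lower and 0.88% higher. Rows high in any group enter the list more readily, so large differences are favoured by the choice of members here too. The difference was below 0 for 75 of the 100 members, with a median of -0.31 on the log2 scale against -0.03 over all genes tested. The share of all genes tested below 0 was not counted. Members share the same libraries, so their signs are not independent. The difference also uses the OX_CK and WT_CK libraries that are compared below. For the higher direction, edgeR gave 1 member at an unadjusted p under 0.05 and DESeq2 gave 0 after adjustment. For the lower direction DESeq2 gave 15. The 5 became 12 without OX_CK replicate 1, 9 without WT_Al replicate 3 and 9 without WT_CK replicate 3.

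The 5 members were Glyma.13G203000, Glyma.15G264300, Glyma.02G292800, Glyma.06G193500 and Glyma.09G203500, of which Glyma.06G193500 lies outside the naming rule and was named after its values were seen. All 5 rose with Al in both lines, and all 5 had a lower mean in WT_CK than in any other group. For Glyma.13G203000 the log2 fold change with Al was 1.90 ± 0.31 (SE) in OX and 7.46 ± 0.40 in WT, and the difference was -5.56 ± 0.45 (adjusted p = 0.000156). It had 2370, 2999 and 2538 CPM in OX_Al and 467.7, 947.7 and 949.7 CPM in OX_CK. Glyma.15G264300 changed by 1.17 ± 0.39 in OX and 5.37 ± 0.46 in WT, a difference of -4.20 ± 0.56 (adjusted p = 0.00352). Its call in OX (adjusted p = 0.0333) ended without OX_Al replicate 2 or 3 or OX_CK replicate 1 (adjusted p = 0.085, 0.0879 and 0.117).

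Glyma.09G203500, ranked 8, had the tightest replicates of the 5. It had 2849, 2818 and 2873 CPM in OX_Al, 1852, 2016 and 1749 in OX_CK, 2383, 2282 and 2161 in WT_Al, and 273.3, 381.0 and 285.6 in WT_CK. The 3 other groups were within 1749 to 2873 CPM, so WT_CK is the group that stands apart. The difference of its Al response was -2.28 ± 0.28 (SE, adjusted p = 0.00223). For Glyma.02G292800 it was -2.31 ± 0.31 (adjusted p = 0.00352), with 756.9 ± 138 CPM in OX_Al, 273.8 ± 62 in OX_CK, 1011 ± 51.4 in WT_Al and 75.0 ± 10.2 in WT_CK (SD, n = 3 each). For Glyma.06G193500 it was -2.30 ± 0.48 (adjusted p = 0.0341). That call ended without any 1 of 8 libraries, namely each OX_Al library, OX_CK replicate 2 or 3, WT_Al replicate 1 or 2, and WT_CK replicate 2, with adjusted p-values from 0.0609 to 0.107.

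**Figure D5:**
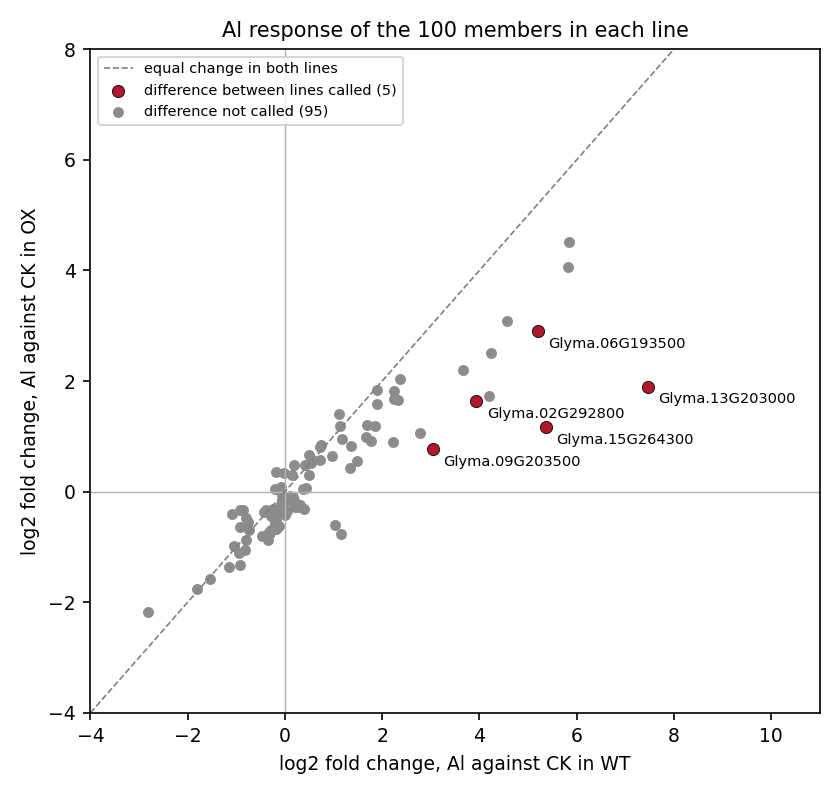
Log2 fold change of Al against CK in OX (vertical) against that in WT (horizontal) for the 100 members, with the dashed line marking equal change and red points the 5 members called for a difference between the lines. The 5 red points lie right of the dashed line, with values in WT from 3.05 to 7.46 and in OX from 0.77 to 2.91.

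Without Al, 19 members were higher in OX than in WT and 0 were lower, where 2.93% of the genes tested were higher and 1.5% lower. For the lower direction, edgeR gave 2 members at an unadjusted p under 0.05 and DESeq2 gave 1 after adjustment. The 19 had a median log2 fold change of 1.93, and over all 100 members the median was 0.26 against -0.002 over all genes tested. The next 100 rows held 19 higher and 2 lower. The list was chosen on CPM that includes the OX libraries, so rows high in OX enter it more readily. Glyma.13G203000, for example, ranked 19478 in WT_CK. The share called among members is therefore not a like comparison with that of all genes. The 19 became 11 without OX_CK replicate 2, 9 without WT_CK replicate 2, 10 with the threshold at 0.01 and 33 by the DESeq2 Wald test. With the replicate number as a block they became 23. WT_CK also serves as the control for the Al response of WT, so the values of the 2 comparisons are not independent.

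Glyma.13G203000 differed most between the lines in CK, where OX exceeded WT by 6.34 ± 0.38 on the log2 scale (SE), with an adjusted p of 6.64e-06. It averaged 788.4 ± 278 CPM in OX_CK and 10.1 ± 2.78 in WT_CK (SD, n = 3 each). Glyma.15G264300 followed with 5.28 ± 0.46 (adjusted p = 7.67e-05), at 4394 ± 1471 CPM in OX_CK and 118.1 ± 63.4 in WT_CK. Every OX_CK library of both members lay above every WT_CK library, which the naming rule required. In CPM, 76 of the 100 members had a higher mean in OX_CK than in WT_CK. They gained 2.55 percentage points of the library against 0.745 points lost by the other 24. The share of all genes with a higher mean in OX_CK was not counted. The list favours rows high in OX, so these values are a description.

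With Al, 5 members were higher in OX than in WT and 0 were lower, where 4.16% of the genes tested were higher and 1.91% lower. The share of members is thus near that of all genes. For the lower direction, edgeR gave 1 member at an unadjusted p under 0.05 and DESeq2 gave 0 after adjustment, and for the higher direction DESeq2 gave 11. The member median was -0.01, against -0.05 over all genes tested. When each of the 12 libraries was dropped in turn, 7 of these fits reduced the 5 calls to 1 or 2, namely those without an OX_Al library, a WT_Al library or WT_CK replicate 2.

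Glyma.20G176500 was the member with the largest difference between the lines with Al, and it was called in all 12 of these fits. It had 1515, 1884 and 1993 CPM in OX_Al and 581.3, 734.4 and 1351 in OX_CK. In WT it had 104.0, 94.6 and 95.5 CPM with Al and 25.5, 28.1 and 39.1 without it. All 6 OX libraries lay above all 6 WT libraries. Between the lines its log2 fold change reached 4.23 ± 0.33 (SE) in Al and 4.90 ± 0.34 in CK (adjusted p = 1.36e-05 and 2.54e-05). It ranked 15 in OX_Al and 39 in OX_CK, against 1789 in WT_Al and 8228 in WT_CK, so it belongs to the 100 through the OX libraries.

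Glyma.19G009000 had 2459, 2728 and 2417 CPM in OX_Al and 999.3, 994.5 and 1321 CPM in WT_Al. OX exceeded WT by 1.24 ± 0.27 on the log2 scale (SE), with an adjusted p of 0.017. That call ended without OX_Al replicate 2 or WT_Al replicate 1 or 2 (adjusted p = 0.0717, 0.0696 and 0.0887). The other 3, Glyma.03G044500, Glyma.05G103600 and Glyma.06G007500, had log2 fold changes of 1.21 ± 0.31, 0.73 ± 0.19 and 0.65 ± 0.16 (adjusted p = 0.0391, 0.0407 and 0.035). The last 2 were named after their values were seen. Each of these 3 calls ended without any 1 of the 3 OX_Al or the 3 WT_Al libraries or WT_CK replicate 2, with adjusted p-values from 0.051 to 0.16. In all 3 the OX_Al and WT_Al libraries did not overlap, which the naming rule required of Glyma.03G044500.

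At the other end stood members whose level hardly moved. Glyma.01G175700, ranked 14, had the smallest range of group means, with 1408 ± 61.3 CPM in OX_Al, 1488 ± 268 in OX_CK, 1413 ± 195 in WT_Al and 1696 ± 129 in WT_CK (SD, n = 3 each). Glyma.06G172600 averaged 519.3 ± 53 CPM in OX_Al, 625.9 ± 43.6 in OX_CK, 535.6 ± 71.7 in WT_Al and 543.6 ± 30 in WT_CK. The group means of both differed by at most 1.21-fold. Glyma.13G325900 was also within 1.21-fold, but its libraries ranged from 344.2 CPM in OX_CK replicate 1 to 868.9 CPM in WT_CK replicate 3, so even means hid a wide spread.

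A few of the most abundant members varied widely between replicates. The biological coefficient of variation from edgeR had a median of 21.5% over the members and 19.8% over all genes tested, and among members it ran from 12.9% to 63.5%. The highest values belonged to Glyma.U005800, Glyma.13G024100 and Glyma.13G013600, ranked 18, 9 and 11, which were chosen after their values were seen. Glyma.13G024100 had 1453, 845.9 and 566.7 CPM in OX_Al, 3964, 3483 and 573.0 in OX_CK, 2215, 667.4 and 508.7 in WT_Al, and 3404, 3284 and 731.0 in WT_CK. Replicate 3 was the lowest library in every group for all 3 of these members. Without a block, none of the 5 comparisons was called for Glyma.13G024100, with adjusted p-values of 0.205 or more. In CPM, which lacks the TMM factors of the test, the Al library was the lower in all 3 same-numbered pairs of each line. This held for these 3 members alike. In OX, however, the numbers were not taken to pair libraries. There the replicate 3 values of Glyma.13G024100 were close, at 566.7 CPM with Al and 573.0 without it. The TMM factors of these libraries, 0.933 with Al and 1.05 without it, reverse that pair for all 3 members. Such pairs were not counted over all genes. With the replicate block the adjusted p of the Al response was 0.0707 in OX and 0.102 in WT for Glyma.13G024100. For Glyma.U005800 it was 0.0501 in OX and 0.0437 in WT, and for Glyma.13G013600 0.0509 in OX and 0.0372 in WT, so the block brought a call in WT for both. Their log2 fold changes in that fit were -1.11 and -0.94 in WT. Replicate 3 was the lowest in all 4 groups for 9 members, against 6.59% of the genes tested, and the highest in all 4 for 3 members, against 8.75%. The labels give no date or batch for the replicate numbers, and what they share was not tested.

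Values with decimals were more common among the members than among other genes. 79 of the 100 had a value that was not whole in at least 1 library, against 43.45% of the genes tested and 82 of the next 100 rows. For 33 members this held in all 12 libraries. Such values are uncertain, since the origin of the decimals is not stated. Whether reads were split between closely similar genes was not tested. Glyma.13G203000, Glyma.06G193500, Glyma.02G190900 and Glyma.07G007000 were whole in every library, while Glyma.15G264300 and Glyma.20G176500 were not whole in 11 libraries and Glyma.09G203500 and Glyma.13G117700 in 12. Also not whole in 12 libraries were Glyma.12G217300 and the falling members Glyma.10G214500 and Glyma.12G217400, so their values carry this uncertainty. Among the 21 members that were whole throughout, 47.6% rose with Al in OX and 9.52% fell, and 52.4% rose in WT and 4.76% fell. In CK 47.6% of them were higher in OX than in WT, and in Al 0%. Over all genes tested, 21.2% rose with Al in OX and 15.2% fell, and 21.5% rose in WT and 15.9% fell. Higher in OX were 2.93% in CK and 4.16% in Al. The list favours rows high in any group, OX included, so these shares are not a like comparison. Shares over all whole-valued genes were not counted.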

How the data were processed

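RNA-seq counts of 12 soybean root libraries in 4 groups of 3 were used, with groups and replicate numbers from the labels. The deposited values are estimated counts for each gene and library, with decimals and with no scaling between libraries that the file headers name. Of all values, 13.2% were not whole (tolerance 1e-06). Per the submitters' processing notes, the tools were HTSeq 0.6.0, HISAT2 2.1.0, Bowtie2 2.2.3, CASAVA and TopHat2, listed without roles. The sources used here name no genome build, annotation, strand setting or origin of the decimals, so genes that overlap, also on opposite strands, may share reads. 8 rows of stray text without values were left out.

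Counts were rounded to whole numbers, filtered with filterByExpr (37170 genes kept) and scaled by TMM. edgeR 4.0.16 (R 4.3.3) fitted 1 mean per group to all 12 libraries and tested contrasts, two-sided, with its quasi-likelihood F-test (robust setting). A call needed p under 0.05 after Benjamini-Hochberg adjustment across the genes tested, and "rose" and "fell" are used of called genes. All adjusted p-values are from this test unless another is named. The SE was derived as the absolute log2 fold change divided by the root of F. The fit was checked on simulated data. CPM values use library totals without TMM. Shares were compared by exact permutation. DESeq2 1.42.0 was an alternative.

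The members and all lists were chosen with earlier results of these data known. Named members are the 10 highest, the largest rises and falls per comparison among called members whose groups did not overlap (the rule allowed 3 each, and 2 were printed because identifiers carry no names, except that counts of 5 or fewer are named in full), the 3 with the smallest range of group means, and 3 on each side of the rank limit. The family and marker lists needed gene descriptions, so none could be built. Same-numbered libraries were correlated in their deviations from group means, and the numbers were taken to pair libraries where every r was above 0.1. That held for the Al response of WT, at 0.129, 0.219 and 0.361, and for the lines in CK, at 0.413, 0.125 and 0.582. It failed for the Al response of OX, at 0.204, -0.004 and 0.163, and for the lines in Al, at 0.0332, -0.131 and -0.0032. The main fit had no replicate block in any comparison, so its calls leave out the pairing where it held. The fit with the replicate number as a block was an alternative.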

Additional observations from a re-analysis of the deposited data

Results flagged for a closer look

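The Al response differed between OX and WT, by the interaction test of edgeR, for 5 of the 100 members, and in each the response was smaller in OX. The adjusted p of the difference was 0.000156 for Glyma.13G203000, 0.00223 for Glyma.09G203500, 0.00352 for Glyma.15G264300, 0.00352 for Glyma.02G292800 and 0.0341 for Glyma.06G193500. The log2 fold changes with Al were 1.90 in OX and 7.46 in WT for Glyma.13G203000, 0.77 and 3.05 for Glyma.09G203500, 1.17 and 5.37 for Glyma.15G264300, 1.63 and 3.94 for Glyma.02G292800, and 2.91 and 5.20 for Glyma.06G193500, with OX given before WT throughout. In CK the same members were higher in OX, with log2 fold changes against WT of 6.34, 2.64, 5.28, 1.93 and 1.86 in that order. In Al these were 0.78, 0.36, 1.08, -0.38 and -0.44, and none was called. The 3 contrasts share libraries, so these values are not independent.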

How the results depend on the processing

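Of the 254 repeats of the counts and shares under an alternative, 212 were taken as kept. Counts had to stay within 1.5 times, and tested shares had to keep their sign and their side of the threshold. The share held by the members had to stay within its SD. A count of 0% that stayed at 0% was taken as kept, which applies to many of these repeats. Counts are given as percent of the members, and the causes were not tested. For Al against CK in WT, members called lower were 11% with library totals only and 13% with the replicate block, against 7%. For Al against CK in OX, they were 4% at an adjusted p under 0.01 and 9.52% among members that were whole in every library, against 18%, and those called higher were 47.6% among whole members, against 29%. For OX against WT in CK, members called higher were 33% by the DESeq2 Wald test, 10% with the threshold at 0.01 and 47.6% among whole members, against 19%, and those called lower were 1% by DESeq2 and 1% of the 200 highest rows, against 0%. For OX against WT in Al, they were higher for 11% by DESeq2, 1% with the threshold at 0.01, 8% of the 50 highest rows and 0% of whole members, against 5%, and lower for 1% of the 200 highest rows, against 0%. The difference of the Al response was called lower for 15% by DESeq2, 8% of the 50 highest rows and 9.52% of whole members, against 5%. With the replicate block no other count moved by over 1.5 times, and the exact test of OX against WT for the 100 highest rows of each library gave p = 0.0312 with labels exchanged within same-numbered pairs.

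Leaving out 1 library in turn, the percent called ran from 30 to 36 higher and 5 to 14 lower for Al against CK in WT, and from 24 to 31 higher and 4 to 19 lower in OX. For OX against WT it ran from 9 to 25 higher in CK and from 1 to 7 in Al, with 0 to 0 lower in both. For the difference it ran from 4 to 12 lower and 0 to 0 higher. The share held by each library's own 100 highest rows differed by 0.321 to 0.626 percentage points for Al against CK and by 1.00 to 1.32 for OX against WT. With 10 rows in place of 100 the Al difference was -0.283 percentage points, of the opposite sign. The share held by a list of 100 taken from WT_CK was 6.74% in OX_Al, 9.63% in OX_CK, 6.90% in WT_Al and 9.98% in WT_CK. Of 850 repeats of the named members' calls, 788 stayed called, 62 ended and 0 changed sign. Depth limits little here, since the lowest member value was 117 counts.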

Other observations

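Of the members, 28 had their highest group mean in OX_Al, 38 in OX_CK, 13 in WT_Al and 21 in WT_CK, and the lowest group mean fell in WT_CK for 41 members and in OX_Al for 42. MSTRG.2647, ranked 85, was the only member without a Glyma identifier. It averaged 723.0 ± 122 CPM in OX_Al, 352.6 ± 89.8 in OX_CK, 819.9 ± 84.7 in WT_Al and 290.0 ± 88.9 in WT_CK (SD, n = 3 each), and it rose with Al by 1.203 ± 0.259 (log2, SE) in OX and 1.686 ± 0.262 in WT (adjusted p = 0.0036 and 0.000357). By the chromosome in the identifier, chromosome 13 held 11 members, the most of any, and chromosome 16 held 1. The identifier numbers of 3 pairs of members lay within 10 steps of each other: Glyma.09G092700 and Glyma.09G093000, Glyma.12G217300 and Glyma.12G217400, and Glyma.14G061100 and Glyma.14G061500.

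Of the 6 members called higher with Al in WT and not in OX, Glyma.08G339500 and Glyma.02G028700 had estimates of opposite sign in the lines, at -0.77 and -0.60 on the log2 scale in OX and 1.16 and 1.03 in WT. These were picked out after their values were seen, and the difference between the lines was not called for either.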
